A study of Mus musculus with 14 samples.

Results

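Natriuretic peptides are small hormones of heart and vessels. The genes described are the 3 peptides Nppa, Nppb and Nppc, their receptors Npr1, Npr2 and Npr3, and Corin, a protease that activates the Nppa and Nppb precursors. The 7 genes were taken from the value table of a mouse heart array series through probe sets that carry exactly 1 gene symbol. Each had 1 probe set, and together they are 7 of the 19931 genes measured.

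Hearts of E12.5 embryos were compared across 4 combinations of mutant alleles of Irx3 and Irx5, a pair of Iroquois homeobox transcription factors. The groups were Irx3-/-;Irx5+/- (4 arrays), Irx5-/- (3 arrays), Irx3-/-;Irx5-/- (4 arrays, the double mutant) and Irx5+/- (3 arrays), and the series text makes Irx5+/- the reference. All 14 arrays therefore come from hearts with at least 1 mutant Irx5 allele, and no wild-type heart is among them. The labels name whole heart and do not say whether an array is 1 embryo, so p-values measure the spread between these samples, which may be technical. The sources used here do not name strain, litter or how the alleles were made.

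In the mammalian heart, Nppa (atrial natriuretic peptide) and Nppb (B-type natriuretic peptide) are made by cardiomyocytes, and in the embryo Nppa marks the forming chamber and trabecular muscle. Both peptides act through Npr1, a receptor guanylyl cyclase that makes cyclic GMP, while Nppc (C-type natriuretic peptide) acts through Npr2. Npr3, the clearance receptor, binds all 3 peptides and removes them, and in the embryonic heart it is known as a marker of the endocardium.

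Values are log2 intensities after RMA (a standard background correction, quantile normalization and summary of Affymetrix probes), and 1 unit is a doubling. Differences come from limma fitted over all genes, are given with their standard errors, and are called where the p adjusted by Benjamini and Hochberg is under 0.05. Levels of different probe sets are not on 1 scale, so genes are compared mainly by their differences between arrays. Levels are set against other genes only roughly, as for Nppc and in a filter that leaves out genes below the median of gene means.

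The targeted genes check the labels. Mean Irx3 levels with SD were 7.97 ± 0.14 over the 4 arrays of Irx3-/-;Irx5+/- hearts, 8.19 ± 0.06 over the 3 of Irx5-/- hearts, 7.73 ± 0.11 over the 4 of double mutant hearts and 8.47 ± 0.05 over the 3 of Irx5+/- hearts. Irx3 was called in the double mutant against Irx5+/- (-0.74 ± 0.10, limma adjusted p = 0.0201) and in no other comparison. The call was lost, at differences of -0.65 to -0.75, with the replicate number as a block (adjusted p = 0.153), with the sarcomere mean (0.162) or the endothelial mean (0.329) as a term, and without double mutant replicate 3 (0.073) or 4 (0.0986) or Irx5+/- replicate 2 (0.0866) or 3 (0.0616). Irx3 differed by -0.50 ± 0.10 in Irx3-/-;Irx5+/- against Irx5+/- (limma adjusted p = 0.673). In the double mutant against Irx5-/- it differed by -0.47 ± 0.10 (0.796). It also differed by -0.27 ± 0.10 in Irx5-/- against Irx5+/- (0.400), groups whose labels name no Irx3 mutation. The Irx5 probe set differed by -0.29 ± 0.19 in Irx5-/- hearts and by -0.28 ± 0.18 in double mutant hearts against Irx5+/-, and neither was called (limma adjusted p = 0.588 and 0.532). The double mutant difference of Irx5 was -0.10 without double mutant replicate 3 and -0.41 without double mutant replicate 2. The sources used here do not say whether the probes of either gene lie in deleted sequence, so they check the labels only in part. The text label of Irx3-/-;Irx5+/- replicate 4 names Irx5-/- in its free description, against its title and genotype fields, and it is kept in its titled group. Its Irx3 value, 8.17, lay within the Irx5-/- range (8.14 to 8.25) and above the other arrays of its titled group (7.87, 7.89 and 7.93). Its Irx5 value, 8.315, lay within the Irx5-/- range (7.86 to 8.34) and within the Irx5+/- range (8.19 to 8.41). The other arrays of its titled group had Irx5 values of 8.31, 8.21 and 8.21, so this value does not tell the genotypes apart. Its Npr3 value, 12.37, lay above the Irx5-/- range (10.93 to 11.44). The genotype of this array was not tested further. Probe sets of 27 cardiac sarcomere genes averaged between 9.78 and 12.31 per array, which describes the labelled tissue only, since probe sets are not on 1 scale.

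None of the 7 genes was called in any of 8 comparisons, under the settings reported here or any alternative. Over all genes, limma called 0% in Irx3-/-;Irx5+/- against Irx5+/-, 0% in Irx5-/- against Irx5+/- and 0.0201% in the double mutant against Irx5+/-. It called 0.00502% in the double mutant against Irx3-/-;Irx5+/- and 0% in the double mutant against Irx5-/-. The share was 0.0151% for Irx5 loss averaged over both Irx3 states, 0% for Irx3 loss averaged over both Irx5 states, and 0% for the interaction of both losses. At an unadjusted p under 0.05, 1 member passed in Irx5-/- against Irx5+/- (10.6% of all genes did), 2 in the double mutant against Irx5+/- (13.5%), 2 in the double mutant against Irx3-/-;Irx5+/- (7.67%) and 2 for average Irx5 loss (15.4%). No member passed it in Irx3-/-;Irx5+/- against Irx5+/- (5.07% of all genes), in the double mutant against Irx5-/- (3.63%), for average Irx3 loss (4.80%) or for the interaction (4.04%). The members that passed were Npr3 each time and Nppc in all but the first of these comparisons. The comparisons share arrays, so they are not independent of each other.

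**Figure D1:**
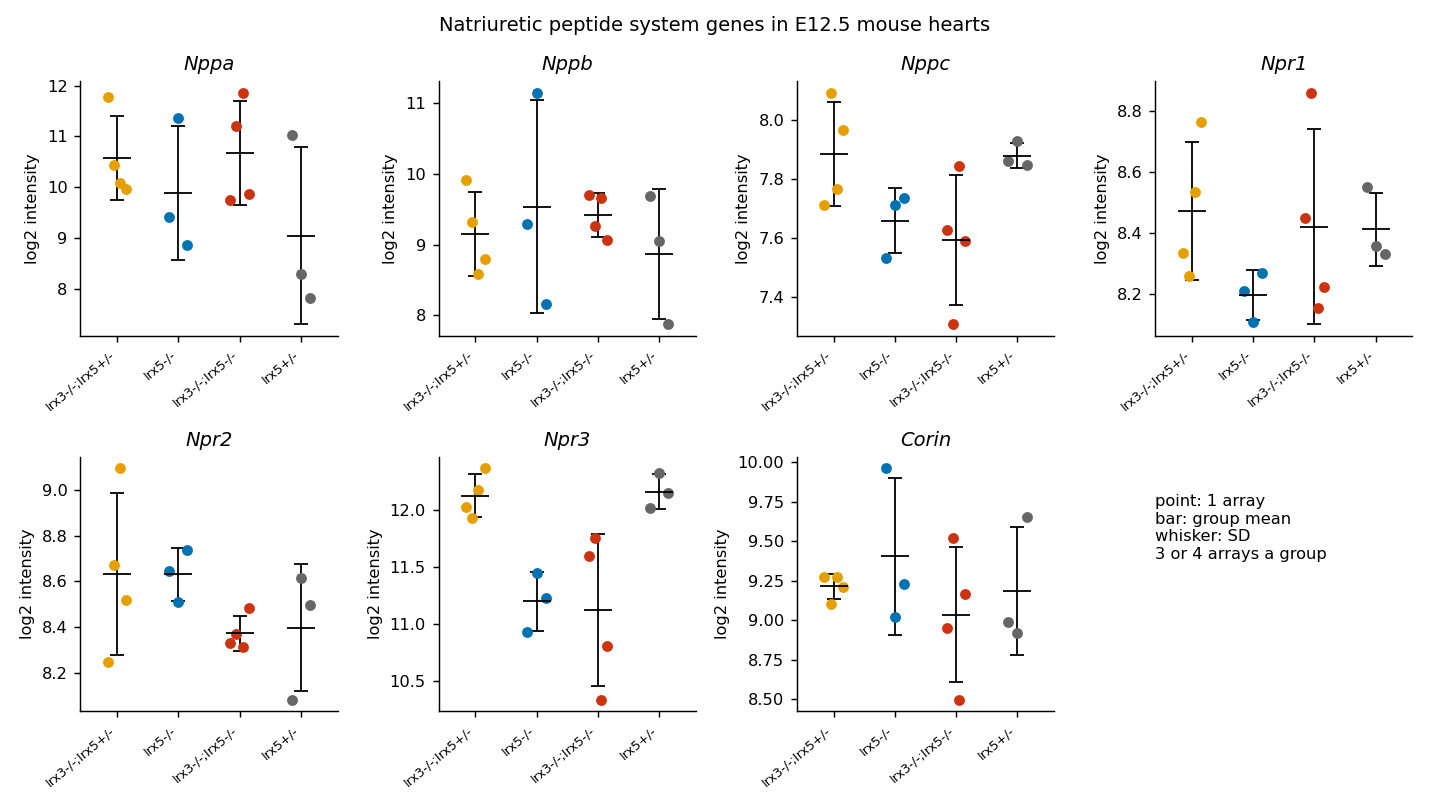
Log2 intensity of the 7 natriuretic peptide system genes on each of the 14 arrays, by genotype (points, arrays; bars, group mean; whiskers, SD; 3 or 4 arrays a group; each panel has its own y axis). All 7 arrays without Irx5 lie below the other 7 for Npr3, while the Nppa and Nppb points of the 4 groups overlap.

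Npr3, the clearance receptor, had its 7 lowest values in the 7 arrays of hearts without Irx5. Its values were 12.03, 11.93, 12.17 and 12.37 in Irx3-/-;Irx5+/- hearts, 10.93, 11.44 and 11.23 in Irx5-/- hearts, 11.60, 11.75, 10.33 and 10.81 in double mutant hearts and 12.02, 12.32 and 12.15 in Irx5+/- hearts. The 7 arrays of Irx5-/- and double mutant hearts ran from 10.33 to 11.75, and the 7 arrays that keep 1 Irx5 copy ran from 11.93 to 12.37, with no overlap. Such a gap between these 2 sets of 7 arrays was found for 0.502% of all genes, and for 0.236% with the Irx5-null arrays lower. Of the 7 members, Npr3 alone showed it.

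Averaged over both Irx3 states, Npr3 differed by -0.98 ± 0.19 with Irx5 loss (95% interval -1.40 to -0.56), which is 0.506 times the level in hearts with 1 Irx5 copy. By p it stood 41st of 19931 genes, and limma's adjusted p was 0.0924, above the threshold. With the replicate number as a block the adjusted p was 0.150. The difference was -0.96 ± 0.29 in Irx5-/- against Irx5+/- (limma adjusted p = 0.332), -1.04 ± 0.27 in the double mutant against Irx5+/- (0.163) and -1.0 ± 0.25 in the double mutant against Irx3-/-;Irx5+/- (0.411). Loss of Irx3 with 1 Irx5 copy still present gave a difference of -0.04 ± 0.27 (95% interval -0.63 to 0.55), and loss of Irx3 in hearts without Irx5 by -0.08 ± 0.27 (-0.67 to 0.51). The interaction was -0.04 ± 0.39, with an interval of -0.88 to 0.80.

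Endothelial and endocardial markers had differences in the same direction as Npr3. Of 27 other genes on that list, 27 had a difference below 0 for average Irx5 loss, 20 of them at an unadjusted p under 0.05 (7.03% of all genes were lower at that p), and 0 were called (list median -0.50, against -0.03 over all genes). The mean of the list, taken as a deviation from its mean over all arrays, ran from -0.40 to -0.14 in Irx5-/- hearts and from -0.63 to 0.16 in double mutant hearts, against 0.01 to 0.43 in Irx3-/-;Irx5+/- hearts and 0.22 to 0.54 in Irx5+/- hearts. Named by the smallest p in comparisons with Irx5+/-, the transcription factor Ets1 differed by -0.42 ± 0.09 for average Irx5 loss, the progenitor and endothelial surface protein Cd34 by -0.41 ± 0.17, the endothelial protein Ecscr by -0.81 ± 0.16 and the junction protein Pecam1 by -0.79 ± 0.18. Without double mutant replicate 2, Ecscr (-0.92) and Pecam1 (-0.91) passed the threshold (limma adjusted p = 0.0406 each), and without Irx5-/- replicate 2 the difference of Cd34 was -0.24. In order of size, Npr3 was the second lowest of the 28 genes after the sialomucin Emcn (-1.13 ± 0.30), which was chosen for mention after its value was seen. Besides Npr3, only Ecscr, Plvap and Nos3 of this list separated the 7 Irx5-null arrays from the other 7.

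**Figure D2:**
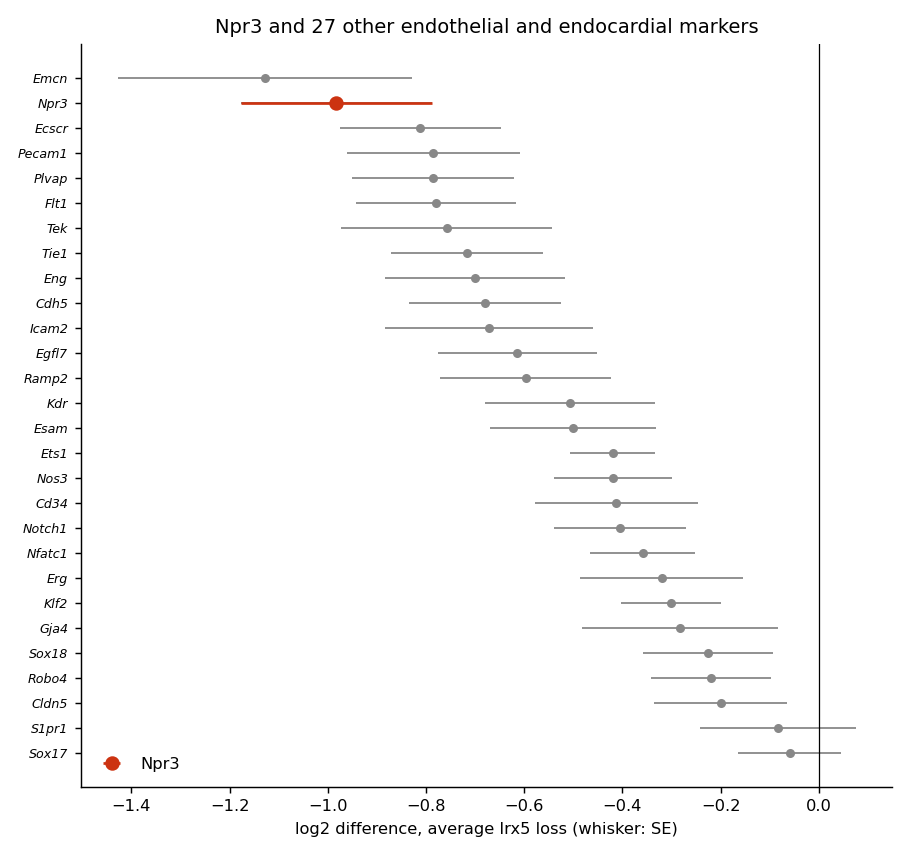
Log2 difference for average Irx5 loss (points; whiskers, SE of the limma fit over 14 arrays) of Npr3, in red, and 27 other endothelial and endocardial markers, sorted with the lowest at the top. All 28 points lie below 0, from -1.13 for Emcn to -0.06 for Sox17, and Npr3 is the second lowest.

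In whole hearts, fewer cells of a type and less RNA per cell cannot be told apart. With each array's endothelial mean as a term in the fit, the average Irx5 difference of Npr3 was -0.22 ± 0.16 (limma adjusted p = 0.645), and that of the double mutant against Irx5+/- was -0.13 ± 0.21 (0.864). Set directly against that mean, Npr3 stood 1.66 ± 0.25 log2 units above it in the 7 Irx5-null arrays (range 1.22 to 1.97) and 2.15 ± 0.14 in the other 7 (range 2.00 to 2.42, SD). The size of this offset has no meaning of its own, since it depends on the probe sets. Its difference of -0.49 had an exact 2-sided permutation p of 0.000583, the smallest that 7 against 7 arrays allow, and 0.0035 adjusted over 6 such tests. The subtraction takes Npr3 to move 1 unit for each unit of the mean, while the fit above estimates that relation. Npr3 itself already separated these same 2 sets of arrays. This p therefore cannot tell whether Npr3 differed apart from the endothelial list. Between arrays with and without Irx3, the offset differed by 0.04 (exact permutation p = 0.820). Within the 7 Irx5-null arrays, Npr3 followed the endothelial mean closely (Pearson r = 0.968, Spearman rho = 1.00, exact permutation p = 0.000397 for each, adjusted over 5 relations to 0.000992 and 0.00198). Without the 2 arrays farthest from the median of the endothelial mean, r was 0.954. In the other 7 arrays r was 0.688 (exact permutation p = 0.0847) and rho 0.464 (p = 0.302).

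double mutant replicate 3 had the lowest Npr3 value, 10.33, and also the lowest endothelial mean, at -0.63. Without it the average Irx5 difference of Npr3 was -0.85, and the double mutant differed from Irx5+/- by -0.78. Without Irx3-/-;Irx5+/- replicate 4, the array with the mismatched description, the average difference was -0.94. The genes whose pattern over the 14 arrays was most like that of Npr3 were Ecscr (Pearson r = 0.961), the endothelial receptor Tie1 (0.959) and the endothelial and haematopoietic surface protein Cd93 (0.959), and these arrays include the 2 sets that Npr3 separates.

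**Figure D3:**
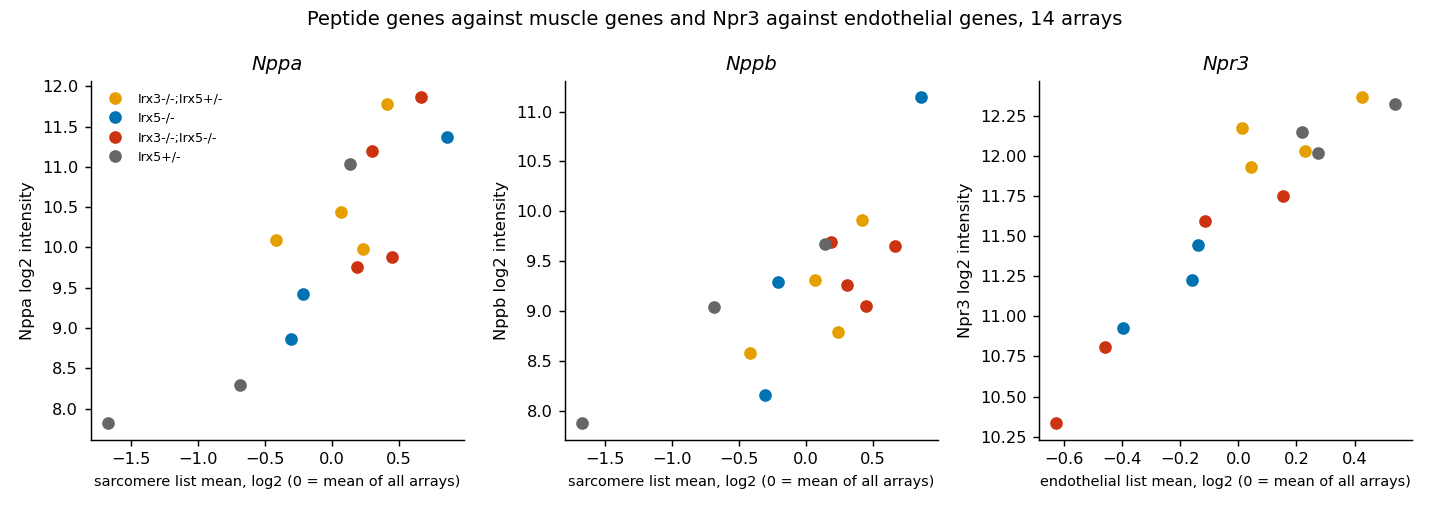
Log2 intensity of Nppa and Nppb against the mean of 27 sarcomere genes, and of Npr3 against the mean of 27 other endothelial genes, on 14 arrays coloured by genotype (each mean is in log2 units, as a deviation from its mean over all arrays). Nppa and Nppb are lowest on the Irx5+/- array with the lowest sarcomere mean, -1.67, and Npr3 is lowest on the double mutant array with the lowest endothelial mean, -0.63.

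Nppa, the atrial natriuretic peptide gene, varied widely between arrays of 1 genotype. Its values were 11.78, 10.44, 10.09 and 9.98 in Irx3-/-;Irx5+/- hearts, 9.42, 11.37 and 8.86 in Irx5-/- hearts, 9.76, 11.20, 11.86 and 9.88 in double mutant hearts and 11.03, 8.29 and 7.82 in Irx5+/- hearts. Over the 14 arrays it spanned 4.05 log2 units, or 16.5-fold. The Irx5+/- group alone spanned 3.22 units, and every pair of groups overlapped.

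Against Irx5+/-, Nppa differed by 1.52 ± 0.80 in Irx3-/-;Irx5+/- hearts (95% interval -0.20 to 3.25, limma adjusted p = 0.999), by 0.83 ± 0.86 in Irx5-/- hearts (-1.01 to 2.68, 0.728) and by 1.62 ± 0.80 in double mutant hearts (-0.10 to 3.35, 0.404). Average Irx3 loss gave 1.16 ± 0.57 (-0.06 to 2.38, limma adjusted p = 1.00), and average Irx5 loss 0.47 ± 0.57 (-0.75 to 1.69). All of these intervals include 0, and differences of more than 3 log2 units lie within some of them. Without Irx5+/- replicate 1, whose Nppa value is 11.03, the difference was 2.52 in Irx3-/-;Irx5+/- hearts, 1.83 in Irx5-/- hearts and 2.62 in double mutant hearts. Without Irx5+/- replicate 3, whose value is 7.82, it was 0.91 in Irx3-/-;Irx5+/- hearts and 1.01 in double mutant hearts. Without Irx5-/- replicate 2, the Irx5-/- difference was 0.09. Average Irx5 loss gave 0.10 without that array and 0.96 without Irx5+/- replicate 1.

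Nppb, the B-type peptide gene, is the chromosomal neighbour of Nppa in the RefSeq annotation. Its values were 9.91, 9.32, 8.59 and 8.79 in Irx3-/-;Irx5+/- hearts, 9.30, 11.14 and 8.16 in Irx5-/- hearts, 9.70, 9.26, 9.66 and 9.06 in double mutant hearts and 9.68, 9.05 and 7.88 in Irx5+/- hearts. All groups overlapped. It differed from Irx5+/- by 0.28 ± 0.57 in Irx3-/-;Irx5+/- hearts, by 0.66 ± 0.61 in Irx5-/- hearts and by 0.55 ± 0.57 in double mutant hearts, and none was called (limma adjusted p = 1.00, 0.693 and 0.718). A single array, Irx5-/- replicate 2 at 11.14, held the highest value, and without it the Irx5-/- difference was -0.14. The double mutant difference was 0.056 without Irx5+/- replicate 3 and 0.96 without Irx5+/- replicate 1.

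Both peptide genes followed muscle genes across arrays. The sarcomere list mean ran from -0.42 to 0.41 in Irx3-/-;Irx5+/- hearts, from -0.31 to 0.86 in Irx5-/- hearts and from 0.19 to 0.66 in double mutant hearts, against -1.67 to 0.14 in Irx5+/- hearts. Of the 27 sarcomere genes, 27 had a difference above 0 in each of the 3 mutant groups against Irx5+/-, with medians of 0.90, 0.93 and 1.22 in the order Irx3-/-;Irx5+/-, Irx5-/- and double mutant, and 0 were called. Medians over all genes were 0.0001, -0.03 and -0.03. At an unadjusted p under 0.05, 14, 11 and 25 were higher. Of all genes, 5.07% and 10.6% passed in either direction in the first comparisons, and 7.90% were higher in the last. All 3 comparisons share the same Irx5+/- arrays. Nppa correlated with the sarcomere mean over the 14 arrays at r = 0.847 (permutation p = 8e-05, adjusted over 5 relations to 0.0004) and rho = 0.771 (permutation p = 0.00177, adjusted 0.00443), and at 0.713 without the 2 farthest arrays. Nppb correlated with it at r = 0.772 (permutation p = 0.00202, adjusted 0.00337) and rho = 0.679 (p = 0.00979, adjusted 0.0122), and at 0.765 without the 2 farthest. Taken as deviations from group means, r was 0.830 for Nppa and 0.837 for Nppb. Nppa and Nppb correlated with each other at r = 0.722 (permutation p = 0.00316, adjusted 0.00395) and rho = 0.679 (p = 0.00916, adjusted 0.0122), at 0.637 without the 2 farthest arrays, and at 0.779 within groups.

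With the sarcomere mean as a term, Nppa differed from Irx5+/- by 0.02 ± 0.54 in Irx3-/-;Irx5+/- hearts, by -0.74 ± 0.57 in Irx5-/- hearts and by -0.48 ± 0.61 in double mutant hearts, so the sign turned in both groups without Irx5. Nppb in the same fit differed by -0.80 ± 0.38, -0.47 ± 0.41 and -0.96 ± 0.43 in those 3 groups, with all 3 signs turned. Minus the sarcomere mean, Nppa differed by -0.14 between the 7 Irx5-null arrays and the other 7 (exact permutation p = 0.760). Between the 8 arrays without Irx3 and the other 6 it differed by 0.61 (exact permutation p = 0.155). Nppb minus that mean differed by -0.12 for Irx5 loss (exact permutation p = 0.684). For Irx3 loss it differed by -0.47 (exact permutation p = 0.0932). The lowest exact permutation p of these was 0.280 after adjustment over 6 such tests. Whether muscle content itself accounts for the Nppa and Nppb values was not tested. The 3 genes most like Nppa over the 14 arrays were the sarcomeric F-box gene Fbxl22 (Pearson r = 0.922) and the cytochrome c oxidase subunits Cox7a1 (0.917) and Cox7a2 (0.908). Those most like Nppb were Dusp27 (0.911), Grhpr (0.907) and the mitochondrial coactivator Ppargc1b (0.888).

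The Nppa promoter is shown because T-box, Nkx2-5 and GATA factors are known to act on it. The 250 bases before the RefSeq start of Nppa (GRCm38.p6, chr4:148000472-148000721, + strand, from RefSeq) were searched on both strands, and capitals mark the matches.
Nppa: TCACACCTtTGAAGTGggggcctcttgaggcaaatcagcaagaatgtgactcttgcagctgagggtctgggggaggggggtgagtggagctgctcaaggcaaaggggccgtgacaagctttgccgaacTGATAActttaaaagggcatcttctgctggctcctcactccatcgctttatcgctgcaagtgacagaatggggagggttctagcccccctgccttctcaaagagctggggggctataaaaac
The T-box motif TCACACCT matched at position -250 from the start, the Nkx2-5 motif TNAAGTG at -241 and the GATA motif TGATAA at -122, and none overlaps another. Of 32536 promoters in the table with a window of the same length, 1.13% hold the T-box letters, 10.01% the Nkx2-5 letters and 7.79% the letters TGATAA. The GATA form AGATAA had no match in this window (9.97% of promoters hold it), and neither had the form AGATAG (7.68%) or the form TGATAG (6.29%). The TEAD motif CATTCC (12.6%), the Iroquois motif ACANNTGT (6.33%) and the SRF CArG box (1.48%) had none either. The CArG box was searched only in its strict form, CC and GG around a run of A or T. Near forms, such as ctttaaaagg beside the GATA match, were not counted.

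Factors known to act on Nppa or Nppb were counted from a list of 21 measured genes. In Irx3-/-;Irx5-/- against Irx5+/-, 16 lay above 0 and 5 below, 6 were higher and 1 lower at an unadjusted p under 0.05 (7.90% and 5.56% of all genes were), and 0 were called (median 0.15, against -0.03 over all genes). Tbx20, a T-box factor of chamber muscle, had 10.31, 10.50, 10.14 and 10.69 in Irx3-/-;Irx5+/- hearts, 10.99, 11.06 and 10.74 in Irx5-/- hearts, 10.86, 10.77, 11.14 and 11.38 in double mutant hearts and 10.42, 9.90 and 10.18 in Irx5+/- hearts. Every Irx5-null array lay above every array with 1 Irx5 copy, a gap found in the higher direction for 0.266% of all genes. The average Irx5 difference of Tbx20 was 0.70 ± 0.12 (limma adjusted p = 0.0851). Tbx20 is also on the cushion mesenchyme list, whose mean deviation ran from -0.40 to 0.29 in Irx5-/- hearts and from -0.02 to 0.44 in double mutant hearts, against -0.29 to -0.05 in Irx3-/-;Irx5+/- hearts and -0.22 to 0.03 in Irx5+/- hearts, and its part in the Tbx20 values was not tested. Tbx3, a T-box repressor of chamber genes, differed by 0.57 ± 0.14 in the double mutant against Irx5+/- (limma adjusted p = 0.140). The nuclear receptor Nr2f2, known for atrial identity, differed by -0.63 ± 0.19 there (0.189), and Tead1 by 0.24 ± 0.11 (0.378). Over all settings, these ran from -0.79 to -0.22 for Nr2f2 and from 0.12 to 0.37 for Tead1.

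**Figure D4:**
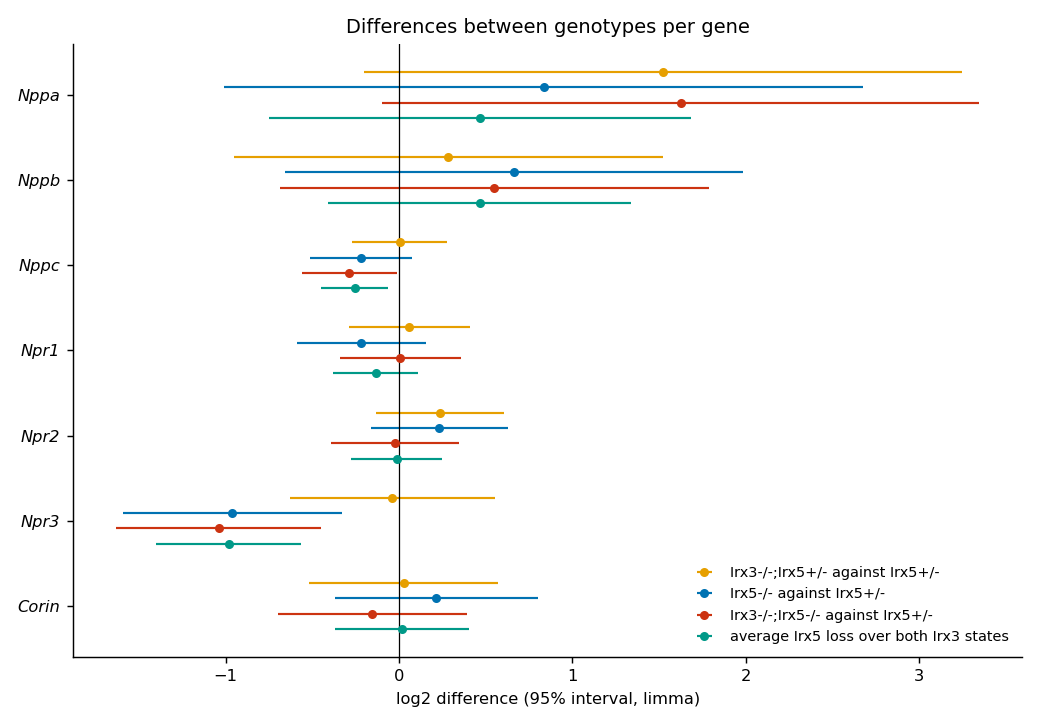
Log2 difference with its 95% interval from limma for the 7 genes, in each mutant group against Irx5+/- and for Irx5 loss averaged over both Irx3 states (14 arrays). The Npr3 intervals of Irx5-/-, of Irx3-/-;Irx5-/- and of average Irx5 loss lie below 0, while the Nppa and Nppb intervals all include 0 and are the widest.

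Nppc, the C-type peptide gene, varied little. Its mean over all arrays, 7.75, lay below the median of gene means, 8.07, and whether its probe set reads above background was not tested. Its values were 7.71, 8.09, 7.77 and 7.97 in Irx3-/-;Irx5+/- hearts, 7.53, 7.71 and 7.73 in Irx5-/- hearts, 7.63, 7.31, 7.84 and 7.59 in double mutant hearts and 7.86, 7.93 and 7.85 in Irx5+/- hearts. Every array of Irx5-/- and of double mutant hearts lay below every Irx5+/- array, while the arrays of Irx3-/-;Irx5+/- hearts overlapped with all other groups. The average Irx5 difference was -0.26 ± 0.09 (95% interval -0.45 to -0.06, limma adjusted p = 0.221), with -0.22 ± 0.14 in Irx5-/- against Irx5+/- and -0.29 ± 0.13 in the double mutant against Irx5+/-. With the endothelial mean as a term, the average Irx5 difference was -0.39 (limma adjusted p = 0.504). Against Irx3-/-;Irx5+/- the double mutant differed by -0.29 ± 0.12 (limma adjusted p = 0.612). Without double mutant replicate 2, the array at 7.31, the double mutant differed from Irx5+/- by -0.19. The genes most like Nppc were Pld2 (Pearson r = 0.934), Pex5l (0.927) and Otud6a (0.917).

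In the comparison of Irx5-/- with Irx5+/-, 3 members had groups that did not overlap, all with Irx5-/- lower: Nppc, Npr1 and Npr3. That share was 16.2% over all genes in either direction and 9.52% in the lower one. In Irx3-/-;Irx5-/- against Irx5+/-, Nppc and Npr3 did not overlap (12.1% of all genes, 5.58% in the lower direction). Only Npr3 did so in the double mutant against Irx3-/-;Irx5+/- (4.82% and 2.18%), and only Npr2 in the double mutant against Irx5-/- (4.11% and 1.98%). No member separated Irx3-/-;Irx5+/- from Irx5+/- (5.73% of all genes), or the 8 arrays without Irx3 from the other 6 (0.0301%).

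Npr1, the guanylyl cyclase receptor for Nppa and Nppb, had 8.33, 8.26, 8.53 and 8.76 in Irx3-/-;Irx5+/- hearts, 8.21, 8.11 and 8.27 in Irx5-/- hearts, 8.45, 8.86, 8.15 and 8.22 in double mutant hearts and 8.55, 8.36 and 8.33 in Irx5+/- hearts. The Irx5-/- arrays all lay below the Irx5+/- arrays, and of the 4 double mutant arrays 2 lay within the Irx5-/- range and 2 above it. Npr1 differed by -0.22 ± 0.17 in Irx5-/- against Irx5+/- (95% interval -0.59 to 0.16) and by 0.01 ± 0.16 in the double mutant against Irx5+/- (-0.34 to 0.36). With the endothelial mean as a term, the Irx5-/- difference was 0.18. The genes most like Npr1 were Rem2 (Pearson r = 0.860), Cftr (0.852) and Capsl (0.847). As for every member, these are the highest r among all genes searched, and they were not tested.

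Npr2, the receptor for Nppc, had 8.25, 8.67, 9.09 and 8.52 in Irx3-/-;Irx5+/- hearts, 8.65, 8.51 and 8.74 in Irx5-/- hearts, 8.33, 8.37, 8.31 and 8.48 in double mutant hearts and 8.08, 8.61 and 8.50 in Irx5+/- hearts. The 4 double mutant arrays lay below the 3 Irx5-/- arrays. The difference from Irx5+/- was 0.23 ± 0.17 in Irx3-/-;Irx5+/- hearts, 0.23 ± 0.18 in Irx5-/- hearts and -0.02 ± 0.17 in double mutant hearts. Without Irx5+/- replicate 1, the array at 8.08, it was 0.078 in Irx3-/-;Irx5+/- hearts and 0.075 in Irx5-/- hearts. The interaction of both losses was -0.49 ± 0.24 (95% interval -1.01 to 0.03, limma adjusted p = 1.00). The genes most like Npr2 were Sec24a (Pearson r = 0.912), Cc2d2a (0.851) and Kcnip4 (0.844).

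Corin, the protease that activates the Nppa and Nppb precursors, had 9.28, 9.10, 9.27 and 9.21 in Irx3-/-;Irx5+/- hearts, 9.96, 9.02 and 9.23 in Irx5-/- hearts, 8.95, 9.52, 8.50 and 9.17 in double mutant hearts and 8.99, 8.92 and 9.65 in Irx5+/- hearts. All groups overlapped, and the differences from Irx5+/- were 0.03 ± 0.25 in Irx3-/-;Irx5+/- hearts, 0.22 ± 0.27 in Irx5-/- hearts and -0.15 ± 0.25 in double mutant hearts. Without Irx5-/- replicate 1, the array at 9.96, the Irx5-/- difference was -0.06. The genes most like Corin were Lrp6 (Pearson r = 0.897), Kctd10 (0.877) and Septin2 (0.870).

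Peptide processing and breakdown genes were counted from a list of 8, and none was called. In Irx3-/-;Irx5-/- against Irx5+/-, 5 lay above 0 and 3 below, 2 of them higher at an unadjusted p under 0.05, as 7.90% of all genes were (median 0.22, against -0.03 over all genes). Mme encodes neprilysin, a membrane protease that degrades natriuretic peptides. It had 8.90, 8.87, 8.73 and 7.88 in Irx3-/-;Irx5+/- hearts, 9.01, 8.90 and 8.70 in Irx5-/- hearts, 9.45, 9.36, 9.20 and 9.90 in double mutant hearts and 7.90, 7.60 and 8.70 in Irx5+/- hearts. Each double mutant array lay above all 10 arrays of the other groups, as was found for 0.231% of all genes. Mme differed from Irx5+/- by 0.53 ± 0.28 in Irx3-/-;Irx5+/- hearts, by 0.80 ± 0.29 in Irx5-/- hearts and by 1.41 ± 0.28 in double mutant hearts (2.65-fold, limma adjusted p = 0.108). Of the others named, the convertase Pcsk6 differed by 0.37 ± 0.14 in the double mutant, the insulin-degrading enzyme Ide by 0.64 ± 0.31 and the peptidase Dpp4 by -0.24 ± 0.33, with -0.84 ± 0.36 for Dpp4 in Irx5-/- hearts.

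Genes of cyclic GMP signalling, the pathway downstream of Npr1 and Npr2, numbered 21 on the array, and none was called. In Irx3-/-;Irx5-/- against Irx5+/-, 6 lay above 0 and 15 below, with 2 higher and 2 lower at an unadjusted p under 0.05 (7.90% and 5.56% of all genes were), which is near the shares over all genes (median -0.06). In Irx5-/- against Irx5+/-, 8 lay above 0 and 13 below, and in Irx3-/-;Irx5+/- against Irx5+/- 10 above and 11 below. In the double mutant, the phosphodiesterase genes Pde3b and Pde3a differed by 0.69 ± 0.21 and -0.78 ± 0.27, the soluble guanylyl cyclase subunit Gucy1a1 by 0.53 ± 0.19 (0.32 without double mutant replicate 1), and the cyclic nucleotide exporter Abcc4 by -0.30 ± 0.11.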

How the data were processed

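Total RNA of E12.5 mouse hearts was amplified from 1 ng and biotin-labelled, per the labels' protocols, and hybridised to Affymetrix Mouse Gene 1.0 ST arrays, 14 in all. The part of this small input in the spread between arrays was not tested. The deposited values are log2 intensities that the authors made with RMA over all arrays together, per the file headers, and they were used as deposited. The sources used here give no software versions or annotation build. Array intensities have no read depth, and precision depends on how many arrays a group has and on the spread between them. Of 28763 probe sets, 21776 had exactly 1 gene symbol in the platform's table. For genes with several, the probe set with the highest mean was kept, which left 19931 genes.

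One limma model (version 3.58.1 in R 4.3.3) held a mean per group over all 14 arrays, with Benjamini-Hochberg adjustment over all genes, 2-sided. It had 10 residual degrees of freedom and was tested on simulated data. For average Irx5 loss and average Irx3 loss, groups were weighted equally. Single values were tested by exact permutation, and correlations by exact permutation or 100000 resamples. The members, the gene lists and the tests were chosen with earlier results of these data known. Named genes were the 7 members, Irx3 and Irx5, the 3 genes most correlated with each member (without predicted genes, small RNAs, and olfactory or vomeronasal receptors), and up to 4 genes per list with the smallest p in a comparison with Irx5+/-. Picking the most correlated of so many genes over 14 arrays favours high r, and those r were not tested. Promoter bases come from RefSeq (GRCm38.p6). Alternatives were the mean of all probe sets of a gene, centring on array medians, a filter on dim genes, an intensity trend with robust prior, array weights, the replicate number as a block, the sarcomere mean, the endothelial mean or sex as a term, and each array left out. Sex was inferred from the array values of Xist and Y-linked genes.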

Additional observations from a re-analysis of the deposited data

How the results depend on the processing

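Replicate numbers of the groups do not pair the arrays: over 19 pairs of arrays with the same number, deviations from group means correlated at -0.179 to 0.191 (median -0.055, 4 over 0.1), and 2 of 14 arrays were closest to their own number. With the replicate number as a block, the average Irx5 difference of Npr3 was -0.98 (limma adjusted p = 0.150), and the sign turned for Nppc in Irx3-/-;Irx5+/- against Irx5+/- (-0.0073), Npr1 in the double mutant against Irx5+/- (-0.0068) and Nppb in the double mutant against Irx5-/- (0.0054). No member passed the threshold under any alternative. No sign of a member turned under the intensity trend with robust prior, the mean of probe sets or the filter on dim genes, which removes Nppc. The other values with a turned sign follow, in log2 units, and their causes were not tested.

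Centring on array medians gave -0.011 for Nppc in Irx3-/-;Irx5+/- against Irx5+/- and 0.0009 for Npr2 with average Irx5 loss. Array weights gave, in the double mutant against Irx5-/-, 0.25 for Nppb and 0.057 for Npr3. They gave 0.020 for Npr3 with average Irx3 loss, 0.074 for its interaction and 0.003 for Npr2 with average Irx5 loss. Sex as a term gave -0.0034 for Npr1 in the double mutant against Irx5+/-, 0 for Npr2 and -0.0034 for Corin with average Irx5 loss, and -0.057 for Nppb with average Irx3 loss.

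With the sarcomere mean as a term, Irx3-/-;Irx5+/- against Irx5+/- gave -0.80 for Nppb, -0.037 for Nppc and 0.030 for Npr3, and Irx5-/- against Irx5+/- gave -0.47 for Nppb and -0.74 for Nppa. The double mutant against Irx5+/- gave -0.96 for Nppb, -0.48 for Nppa, 0.31 for Npr2, 0.30 for Corin and -0.076 for Ide, and against Irx3-/-;Irx5+/- it gave -0.17 for Nppb and -0.50 for Nppa. Average Irx5 loss gave -0.32 for Nppb, -0.62 for Nppa and 0.16 for Npr2. Average Irx3 loss gave -0.65 for Nppb, 0.15 for Npr2 and 0.048 for Corin, and the interaction 0.30 for Nppb and 0.24 for Nppa. With the endothelial mean as a term, Irx3-/-;Irx5+/- against Irx5+/- gave -0.039 for Nppc and 0.21 for Npr3, Irx5-/- against Irx5+/- 0.18 for Npr1, and the double mutant against Irx3-/-;Irx5+/- 0.25 for Npr1 and -0.032 for Nppa. Average Irx3 loss gave 0.09 for Npr3. The double mutant against Irx5+/- gave 0.22 for Irx5, 0.79 for Dpp4 and 0.31 for Emcn. Average Irx5 loss gave 0.21 for Npr1, 0.17 for Irx5, 0.27 for Dpp4 and 0.084 for Emcn.

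Leaving out 1 array turned the sign of 63 of 539 member values. In Irx3-/-;Irx5+/- against Irx5+/-, Nppc ran from -0.063 to 0.063, Corin from -0.11 to 0.26, Npr3 from -0.12 to 0.043, Npr1 from -0.036 to 0.13 and Nppb from -0.21 to 0.69. In Irx5-/- against Irx5+/-, Corin ran from -0.062 to 0.45 and Nppb from -0.14 to 1.35. In the double mutant against Irx5+/-, Corin ran from -0.31 to 0.080, Npr1 from -0.14 to 0.10, Npr2 from -0.18 to 0.084 and Dpp4 from -0.51 to 0.011. Against Irx3-/-;Irx5+/-, the double mutant ran from -0.20 to 0.044 for Npr1 and from -0.30 to 0.50 for Nppa. Against Irx5-/-, it ran from -0.15 to 0.028 for Nppc, from -0.29 to 0.19 for Npr3 and from -0.80 to 0.69 for Nppb. For average Irx5 loss, Corin ran from -0.12 to 0.13 and Npr2 from -0.092 to 0.063. For average Irx3 loss, Nppc ran from -0.072 to 0.017, Npr3 from -0.16 to 0.074, Npr2 from -0.089 to 0.053 and Nppb from -0.26 to 0.49. The interaction ran from -0.16 to 0.022 for Nppc, from -0.25 to 0.22 for Npr3, from -1.08 to 0.41 for Nppb and from -1.73 to 0.0096 for Nppa.

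Over all genes, the 4 calls in the double mutant against Irx5+/- became 0 to 23 with 1 array left out (23 without Irx5+/- replicate 1) and 0 to 7 under the other alternatives. The 3 calls for average Irx5 loss became 0 to 7 and 0 to 3, and the 1 call in the double mutant against Irx3-/-;Irx5+/- became 0 and 0 to 1. The comparisons with 0 calls gave at most 1 with an array left out and at most 2 otherwise.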

Other observations

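Muscle markers other than the peptides had differences mostly above 0 in double mutant hearts against Irx5+/- hearts, and apart from Irx3 none was called. Of 12 trabecular and chamber genes, 8 lay above 0 and 4 below in that comparison (median 0.78). The targeted genes Irx3 (-0.74) and Irx5 (-0.28) are on this list and among those below 0, so these counts are not of markers alone. The connexin gene Gja5, named after its value was seen, differed by 2.10 ± 0.47 there (limma adjusted p = 0.122), and without Irx5+/- replicate 1 it was called at 2.82 (limma adjusted p = 0.0284). Of 8 atrial genes, 6 lay above 0 and 2 below, and the counts were the same for 8 ventricular genes (median 0.60). The Irx5+/- array with the lowest sarcomere mean is part of these comparisons.

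Other cell types were also counted in the double mutant against Irx5+/-, with 0 genes called on each list. Of 9 epicardial genes, 7 lay above 0 and 2 below, and of 10 cushion mesenchyme genes 7 above and 3 below. The counts were 4 above and 2 below for 6 smooth muscle genes, 4 and 3 for 7 erythroid genes, 4 and 4 for 8 macrophage genes, 1 and 5 for 6 liver genes, 1 and 4 for 5 lung and foregut genes, and 2 and 2 for 4 genes of neural crest and neurons.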
